A study of Mus musculus with 6 samples.

Results

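The genes described here are Trp53, which encodes the transcription factor p53, and 9 genes that p53 is known to switch on: Mdm2, Cdkn1a, Ccng1, Bax, Bbc3, Phlda3, Eda2r, Trp53inp1 and Sesn2. They were chosen by symbol as genes of the pathway, with earlier results of these data known, and all 10 were found among the 21006 genes of the counts table. All 10 also passed the filter on low counts, which left 14555 tested genes. RNA was measured in neural crest cells of mouse branchial arches, the embryonic swellings that form the jaws and middle ear, at E11.5. The 3 DKO (double knockout) libraries had the genotype Ehmt1f/f, Ehmt2f/f, and the 3 control libraries the genotype Ehmt1+/+, Ehmt2+/+. Both groups also carried Rosa26 TdTomato/+ and Wnt1-cre, so cells of the crest lineage were sorted by their red fluorescence in both, and the control group shares the Cre. Floxed alleles are deleted only where Wnt1-cre is or was active. Replicates are called biological in the labels, which do not say whether a library is 1 embryo or a pool. The comparison asks whether loss of EHMT1 and EHMT2 (GLP and G9a), the paired enzymes that place mono- and dimethyl marks on lysine 9 of histone H3, goes with a p53 response, the process behind several craniofacial disorders of the neural crest.

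p53 is held at a low level in unstressed cells by MDM2, which marks it for destruction. DNA damage, faulty ribosome assembly and other stresses free it from MDM2, and it then activates genes that stop the cell cycle, cause cell death or adjust metabolism, together with Mdm2 itself, which closes a negative feedback loop. Because the control acts mainly on the protein, the level of Trp53 RNA is not a measure of p53 activity, and the RNA of its targets is the usual readout. Crest cells of the face are known to be sensitive to this pathway: in mouse models of Treacher Collins syndrome, excess p53 activity kills crest progenitors. EHMT1 and EHMT2 have also been reported to methylate the p53 protein.

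p53 binds DNA at pairs of a 10-base pattern, the p53 half-site consensus, which reads the same on both strands. RefSeq promoter windows on GRCm38.p6, which run from 250 bases before to 50 bases after a start, were found for 9 of the 10 genes, 12 windows in all. An exact half-site stood in a window of 5 of these 9 genes, and in 9.55% of all 27025 genes with a window. The stretches below are shown because they hold the letters through which p53 could bind near these starts, with each half-site in capitals and the sequence written 5′ to 3′ on the strand of the gene.
Cdkn1a, chr17:29090881-29090962, plus strand: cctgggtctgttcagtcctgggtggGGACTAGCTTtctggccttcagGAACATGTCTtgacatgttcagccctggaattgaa
Ccng1, chr11:40755437-40755496, minus strand: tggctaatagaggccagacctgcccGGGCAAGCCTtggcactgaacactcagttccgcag
Mdm2, chr10:117710910-117710969, minus strand: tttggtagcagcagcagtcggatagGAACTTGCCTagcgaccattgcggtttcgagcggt
Bax, chr7:45467065-45467124, minus strand: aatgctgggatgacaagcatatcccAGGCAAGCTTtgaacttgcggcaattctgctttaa
Trp53, chr11:69580259-69580318, plus strand: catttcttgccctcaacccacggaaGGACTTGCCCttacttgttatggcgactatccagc
Only the Cdkn1a window held 2 exact half-sites, 12 bases apart. An arrangement of exact half-sites no more than 13 bases apart was found in 0.0740% of all genes with a window. The Cdkn1a pair lies before the upstream start of the gene, and its second half-site begins 2841 bases before the other annotated start. Only exact matches were counted and put in capitals. The 10 bases right after that second half-site differ from the pattern at their first letter alone. The capitals thus need not mark the pair that p53 binds. The windows of Phlda3, Sesn2, Bbc3 and Eda2r, and that at the other start of Cdkn1a, held no exact half-site, which says only that these letters are not within those 300 bases. The libraries measure RNA and not binding, so a match is a description of the sequence.

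Total counts lay between 23414466 and 44538260 per library. Levels are given as CPM, the counts scaled to a library total of 1000000 after TMM correction of that total. Both targeted genes were lower in DKO. Ehmt2 lay between 119 and 140.4 CPM in DKO and between 347 and 359.7 CPM in the control libraries, and Ehmt1 lay between 133 and 168 CPM in DKO and between 250.03 and 268 CPM in the controls. A count per gene includes reads from undeleted exons, so how much intact transcript remained is not known from it. DKO replicate 3 stood apart from the other DKO libraries: on the first principal component of all genes it was at -12.3, DKO replicates 1 and 2 were at -31.8 and -37.0, and the controls were at 19.1 to 31.2. It also held the most RNA of the targeted genes in DKO, which summed to 268, 251 and 308 CPM in replicates 1 to 3. Without it the log2 fold changes were -0.91 for Ehmt1 and -1.55 for Ehmt2, beside -0.81 and -1.47 with all libraries. Why this library differed was not tested. The labelled cell type was seen in its markers, since the 18 cranial crest markers summed to 2378 to 2861 CPM in DKO and 2649 to 3155 CPM in the control libraries. The sort also held RNA of neurons, since the 13 neuron and neural tube markers summed to 1182 to 1555 CPM in DKO and 1323 to 1762 CPM in the control libraries, groups that overlap. Of these 13 markers 11 had log2 fold changes below 0 and 1 was called, lower, with a median of -0.33. Of all 14555 tested genes 7459 were below 0. The 10 glia and melanocyte markers summed to 208 to 215 CPM in DKO and 220 to 230 CPM in the control libraries, groups that do not overlap, and 1 of the 9 tested was called, higher. Markers of epithelium were low, at 20.9 to 36.3 CPM in sum over all 6 libraries. Those of muscle summed to 30.6 to 48.1 CPM in DKO and 27.0 to 31.3 CPM in the control libraries, and 1 of the 10 tested was called, higher. Markers of blood and immune cells ran from 27.6 CPM in DKO replicate 1 to 326 CPM in DKO replicate 3. The part of these other cell types in the levels of the 10 genes was not tested.

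Neither Trp53 nor any of its 9 targets was called in DKO crest, at an adjusted p below 0.05 in the edgeR quasi-likelihood test over all tested genes, where 3.01% of all tested genes were called (2.19% higher and 0.818% lower). limma-voom also called none of the 10, and the Wald test of DESeq2 called 1, Phlda3. Over all genes limma-voom called 300 higher and 111 lower of 14555, and DESeq2 called 642 higher and 479 lower of 15386. The 10 log2 fold changes, DKO over control, ran from -0.43 for Cdkn1a to 0.54 for Phlda3, 7 below 0 and 3 above, with a median of -0.08 beside -0.01 over all tested genes. Of all 14555 tested genes 7459 were below 0 and 7096 above. At an unadjusted p below 0.05 stood 3 of the 10 genes, Phlda3 above and Ccng1 and Cdkn1a below control, beside 20.9% of all tested genes. The 3 DKO and 3 control libraries did not overlap for 4 of the 10 genes, Phlda3 and Eda2r higher and Cdkn1a and Ccng1 lower. Such separation was found for 27.2% of all tested genes, 14.5% higher and 12.7% lower. The targets thus did not share a direction. In bulk RNA, a change in how many cells express a gene and a change in RNA per cell cannot be told apart.

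The intervals bound what the 6 libraries leave possible. For 8 of the 10 genes the upper end of the 95% interval lay below a 1.5-fold rise, and for all 10 below a 2-fold rise. The same held for 74.8% and 87.5% of all tested genes, so bounds of this width are common in these data. Only Phlda3 had an interval wholly above 1, and only Cdkn1a and Ccng1 had one wholly below it. These intervals are not adjusted for the number of genes tested.

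**Figure D1:**
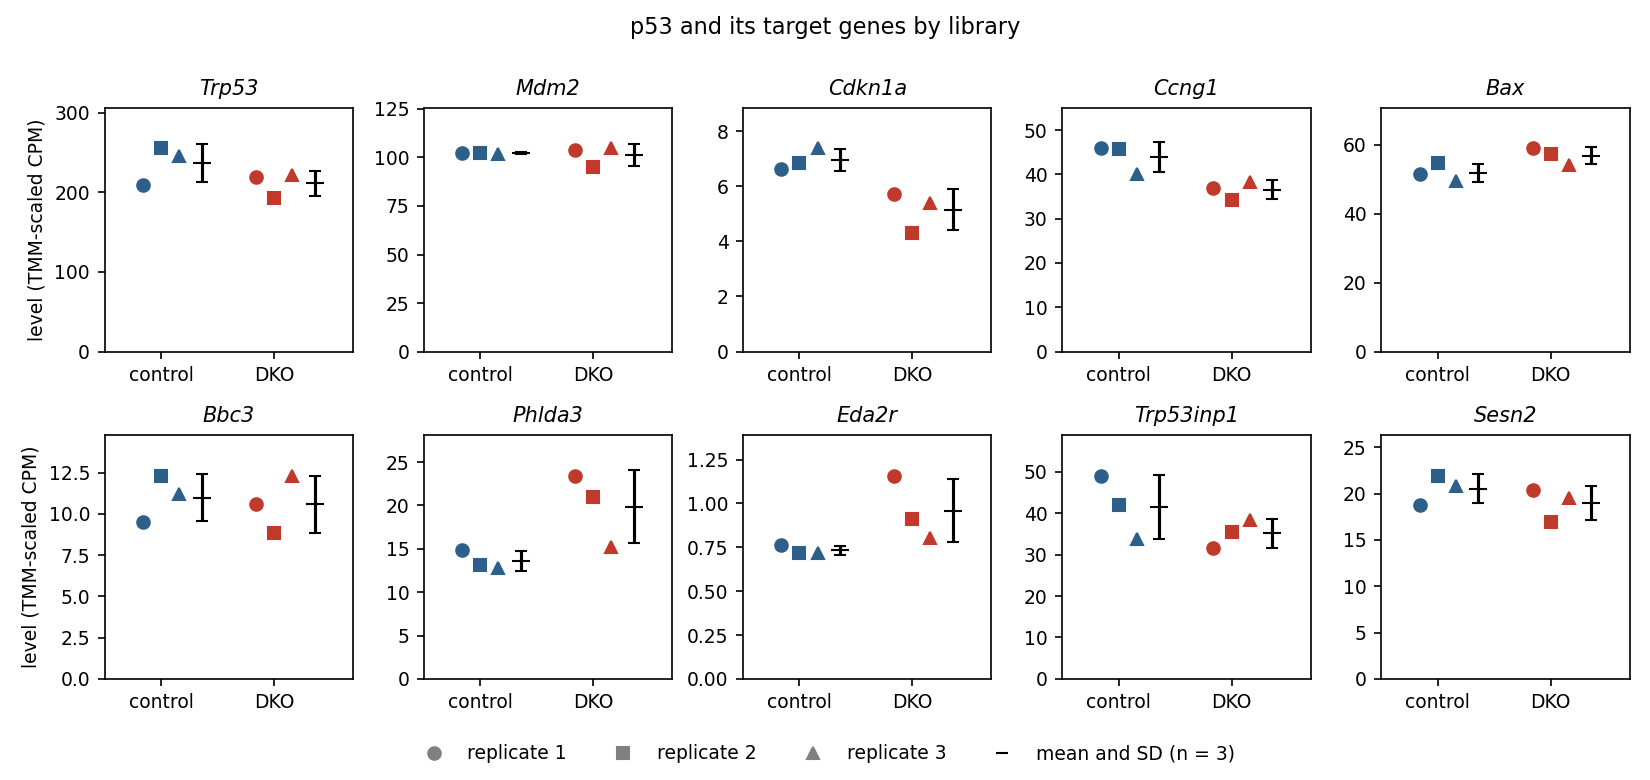
TMM-scaled CPM (vertical axes, each from 0) of the 10 genes in 3 control and 3 DKO libraries, with the replicate shown by the marker and the mean and SD beside each group. Mdm2 lies between 94.9 and 104.7 CPM in all 6 libraries, all DKO libraries lie below all controls for Cdkn1a and Ccng1, and all lie above them for Phlda3 and Eda2r, with DKO replicate 3 just above the highest control.

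Trp53 and its feedback inhibitor Mdm2 were close in the groups. Trp53 (chromosome 11, 69580348 to 69591873) measured 219, 193 and 222 CPM in DKO replicates 1 to 3 and 209.8, 255 and 245 CPM in control replicates 1 to 3. Control replicate 1 fell among the DKO values, so the groups overlapped. Its log2 fold change was -0.17 (SE 0.10; adjusted p = 0.358, edgeR), and its 95% interval ran from 0.77-fold to 1.04-fold. A Trp53 processed pseudogene is annotated and is not among the counted genes, so reads from the gene could have been dropped or added there to the extent that the sequences match.

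Mdm2 (chromosome 10, 117688875 to 117710758), the ubiquitin ligase that holds p53 in check and is itself a target, measured 104.0, 94.9 and 104.7 CPM in DKO and 102.4, 102.5 and 101.8 CPM in the control libraries. The controls were within 1 CPM of one another, and the DKO libraries lay on both sides of them. Mdm2 had a log2 fold change of -0.01 (SE 0.07; adjusted p = 0.930, edgeR), with an interval of 0.89-fold to 1.10-fold, the narrowest of the 10 genes.

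Both arrest genes stood lower in DKO, and neither passed the test. Cdkn1a (chromosome 17, 29090979 to 29100722) encodes p21, the inhibitor of cyclin-dependent kinases through which p53 stops the cell cycle. It measured 5.74, 4.32 and 5.41 CPM in DKO and 6.62, 6.86 and 7.38 CPM in the control libraries, from 189 to 242 and 153 to 296 counts. Every DKO library was below every control. Its log2 fold change was -0.43 (SE 0.17; edgeR unadjusted p = 0.0301, adjusted p = 0.190), and a 95% interval of 0.57-fold to 0.96-fold holds no rise.

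Ccng1 (chromosome 11, 40748552 to 40755309), which encodes cyclin G1, a partner of a phosphatase that acts on MDM2, measured 37.0, 34.3 and 38.4 CPM in DKO and 45.9, 45.8 and 40.1 CPM in the control libraries. The groups did not overlap, and the gap between DKO replicate 3 and control replicate 3 was small. Ccng1 had a log2 fold change of -0.27 (SE 0.09; edgeR unadjusted p = 0.0162, adjusted p = 0.149), with an interval of 0.72-fold to 0.96-fold. Of the 5 genes whose half-sites are printed above, Cdkn1a and Ccng1 lay below control without overlap, and Mdm2, Bax and Trp53 overlapped with it. Of the genes whose windows held no exact half-site, Phlda3 and Eda2r lay above control without overlap, and Bbc3 and Sesn2 overlapped. Such separation was found for 27.2% of all tested genes, and a link with half-sites was not tested.

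The genes of the mitochondrial death pathway were near control levels. Bax (chromosome 7, 45461695 to 45466903) encodes the protein that opens the outer membrane of mitochondria. It measured 59.0, 57.3 and 54.1 CPM in DKO and 51.6, 54.6 and 49.5 CPM in the control libraries. The groups overlapped at one point, with DKO replicate 3 below control replicate 2. Bax had a log2 fold change of 0.13 (SE 0.07; adjusted p = 0.352, edgeR), with an interval of 0.97-fold to 1.23-fold. A predicted gene, Gm45808, shares 192 exonic bases with Bax on the same strand and is not among the counted genes.

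Bbc3 (chromosome 7, 16308398 to 16318334) encodes PUMA, which frees BAX from its inhibitors and is a main killer downstream of p53. It measured 10.6, 8.82 and 12.3 CPM in DKO and 9.48, 12.3 and 11.2 CPM in the control libraries. The groups overlapped fully. Bbc3 had a log2 fold change of -0.05 (SE 0.16; adjusted p = 0.891, edgeR), with an interval of 0.74-fold to 1.25-fold, and its sign turned in 3 of 13 other fits.

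Phlda3 had the smallest p-value of the 10 genes. It encodes a protein with a pleckstrin homology domain that blocks AKT at the membrane, and it lies on chromosome 1 (135766085 to 135769134). It measured 23.4, 20.9 and 15.2 CPM in DKO and 14.9, 13.1 and 12.8 CPM in the control libraries. All DKO libraries were above all controls, but DKO replicate 3 exceeded control replicate 1 by little. Its log2 fold change was 0.54 (SE 0.17; edgeR unadjusted p = 0.0105, adjusted p = 0.126), with an interval of 1.12-fold to 1.90-fold. Without DKO replicate 3 the log2 fold change was 0.70 and the gene was called (edgeR adjusted p = 0.0174), and the Wald test of DESeq2 on all 6 libraries also called it (0.54; adjusted p = 0.0435). Both fits called more genes in all: 597 higher and 509 lower of 14601 without DKO replicate 3, and 642 and 479 of 15386 with DESeq2. Without DKO replicate 1, where Phlda3 was highest, its value was 0.41 (edgeR adjusted p = 0.397).

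Markers of endothelium also stood higher in DKO. The 10 endothelial markers summed to 38.6 to 43.1 CPM in DKO and 24.4 to 27.5 CPM in the control libraries, 1 of 10, Tie1, was called higher, and none was at 0 in all libraries. Without Tie1 the other 9 summed to 30.7, 32.0 and 35.8 CPM in DKO replicates 1 to 3 and to 23.6 to 26.4 CPM in the control libraries. All 10 endothelial markers had log2 fold changes above 0, with a median of 0.44, beside 7096 above 0 of all 14555 tested genes. Among the DKO libraries the sum of the 9 was highest in replicate 3, where Phlda3 was lowest, but single markers differed in their order. Tie1, Pecam1 and Emcn, the endothelial markers whose groups did not overlap, were lowest in DKO replicate 3, as Phlda3 was. Cdh5, Kdr, Cldn5, Egfl7, Flt1 and Esam were highest there, and Tek lay between the other DKO libraries. The sum thus does not stand for each marker. The part of endothelial RNA in the Phlda3 level was not tested.

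Of the 13138 other tested genes with a mean of at least 1 CPM, those whose levels followed Phlda3 most closely over the 6 libraries were Tppp, Tmem205, Lrrc3b, Stard10 and Thbd. Likeness was taken as the root mean square difference of log2 CPM centred on each gene's own mean, which was 0.06 for Tppp and 0.08 for Thbd. None of the 5 was called, with log2 fold changes between 0.44 and 0.55. The match includes the difference between the groups, so values near that of Phlda3 follow from how these genes were picked. None is among the 10 genes or the other p53 targets examined here.

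Eda2r (chromosome X, 97333837 to 97377234), a receptor of the tumour necrosis factor family that binds ectodysplasin A2, was close to silent. It measured 1.16, 0.914 and 0.805 CPM in DKO and 0.760, 0.718 and 0.718 CPM in the control libraries, from 36 to 43 and 16 to 34 counts. The groups did not overlap. The DKO libraries stood in the order seen for Phlda3, but 43, 40 and 36 counts in replicates 1 to 3 are too few to rank them. With 0.38 as its log2 fold change (SE 0.27; adjusted p = 0.448, edgeR), Eda2r had an interval of 0.85-fold to 1.99-fold, the widest of the 10 genes.

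The 2 stress-related targets lay slightly below control. Trp53inp1 (chromosome 4, 11156441 to 11174379) encodes a nuclear protein that promotes death and autophagy under stress, and measured 31.5, 35.6 and 38.3 CPM in DKO and 49.1, 41.9 and 33.7 CPM in the control libraries. Control replicate 3 fell between the DKO values, and the control group had the larger spread (SD 7.71 CPM, against 3.44 CPM in DKO, n = 3 each). Trp53inp1 had a log2 fold change of -0.24 (SE 0.14; adjusted p = 0.357, edgeR), with an interval of 0.67-fold to 1.06-fold.

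Sesn2 (chromosome 4, 132492804 to 132510456) encodes sestrin 2, a leucine sensor that restrains the growth kinase mTORC1 and is also induced by the transcription factor ATF4. It measured 20.4, 16.9 and 19.6 CPM in DKO and 18.8, 21.9 and 20.9 CPM in the control libraries, and the groups overlapped. Sesn2 had a log2 fold change of -0.11 (SE 0.11; adjusted p = 0.610, edgeR), with an interval of 0.77-fold to 1.11-fold.

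**Figure D2:**
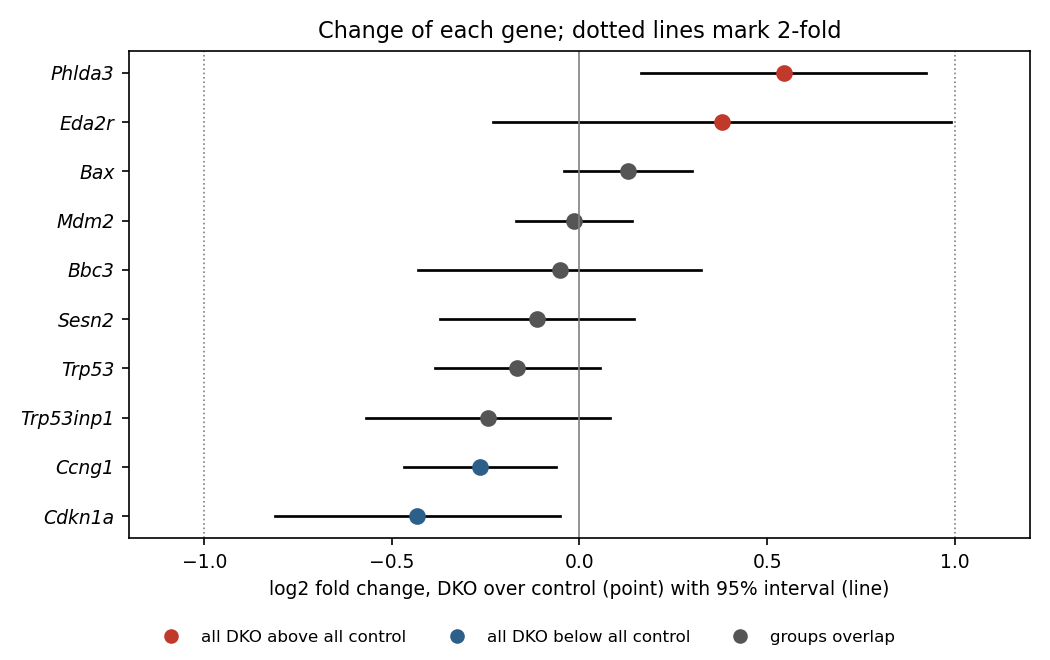
Log2 fold change of each gene, DKO over control (horizontal axis), as a point with its 95% interval as a line, coloured by whether the 3 DKO and 3 control libraries overlap; dotted lines mark 2-fold. All 10 upper ends lie below the 2-fold line, and the intervals of Phlda3, Ccng1 and Cdkn1a do not cross 0.

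**Figure D3:**
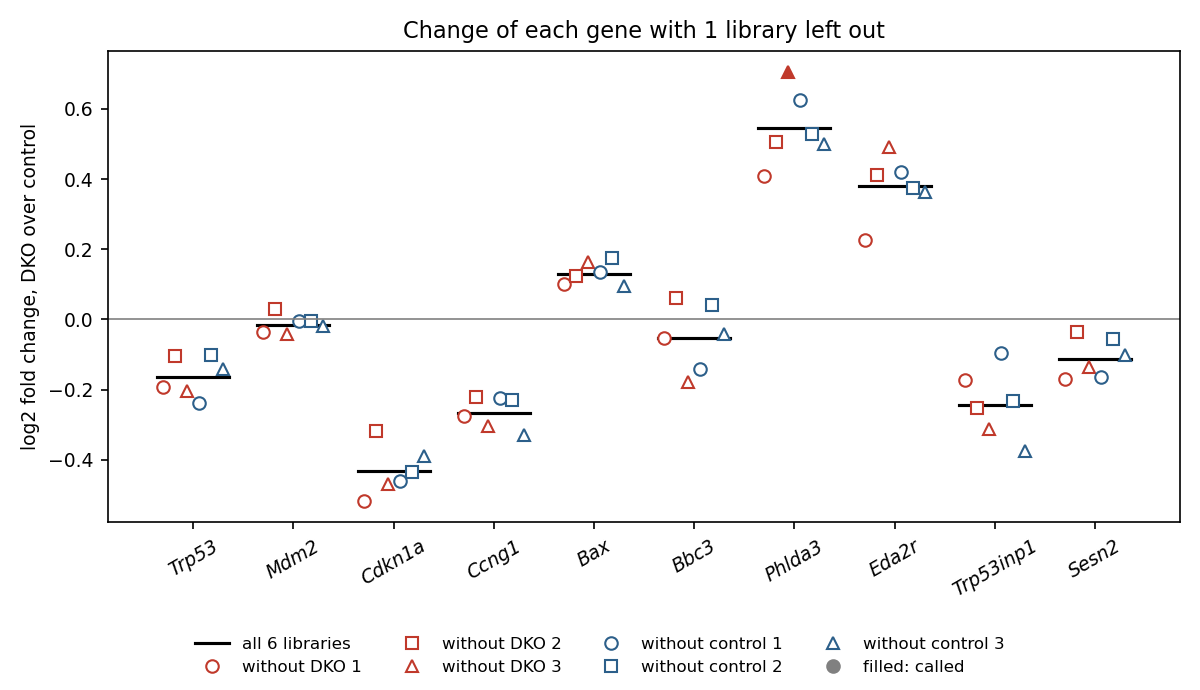
Log2 fold change of each gene (vertical axis) with all 6 libraries as a black line and with 1 library left out as a marker, coloured by the group of the library left out and filled where the gene was called. The 1 filled marker is Phlda3 without DKO replicate 3, at 0.70; Mdm2 and Bbc3 have markers on both sides of 0.

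Per kilobase of exon, a scale on which genes can be compared, Trp53 was the most abundant of the 10 genes and Eda2r the least, over the exons of GENCODE M21. Trp53 stood at 113 ± 8.70 CPM per kb in DKO and 127 ± 12.8 CPM per kb in the controls, where ± gives the SD (n = 3), here as in the values that follow. Bax followed at 65.5 ± 2.87 and 59.9 ± 2.97, and Mdm2 at 32.2 ± 1.74 and 32.5 ± 0.122. Phlda3 and Ccng1 came next, at 13.8 ± 2.96 and 10.4 ± 0.594 in DKO and at 9.47 ± 0.787 and 12.5 ± 0.937 in control libraries, so their order was not the same in the groups. Trp53inp1, Bbc3 and Sesn2 had means between 5.46 and 7.69 in the 2 groups and followed one another within about their spread. Cdkn1a was far lower, at 1.90 ± 0.274 in DKO and 2.56 ± 0.143 in control libraries, and Eda2r stood at 0.200 ± 0.0378 and 0.153 ± 0.00513. Among the inhibitors of the same family, whose values were chosen after they were seen, Cdkn1b (p27) stood at 16.2 ± 0.413 and 16.8 ± 0.426 CPM per kb, and Cdkn1c (p57), an imprinted gene, at 214 ± 57.3 and 244 ± 17.4.

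The pathway beyond these genes gave the same count. Of 45 tested other p53 targets in 3 lists, 0 were called in either direction by edgeR or limma-voom, and 7 stood at an unadjusted p below 0.05 in the edgeR test, beside the 20.9% of all tested genes at that p. DESeq2 called 2 of them lower, Zmat3 and Ak1, which were named after their values were seen (log2 fold changes of -0.26 and -0.38). Over all genes DESeq2 called 479 of 15386 lower. Of the 45, 28 log2 fold changes were above 0 and 17 below, with a median of 0.05, beside 7096 above and 7459 below over all tested genes. The 11 arrest genes had a median of 0.05 and the 2 highest in CPM, not divided by exon length here or for the lists that follow, were Plk2, a polo-like kinase gene (0.12), and Ccng2, which encodes the cyclin G relative of Ccng1 (0.20, edgeR adjusted p = 0.172). The 13 death genes had a median of 0.04, and the 2 highest in CPM were Trp53i11 (0.05) and Ei24 (-0.17). The 21 repair and metabolism genes had a median of 0.07, with Gpx1, a glutathione peroxidase gene, at 0.07 and Prkab1, a subunit of the energy sensor AMPK, at 0.21 (edgeR adjusted p = 0.136). For 36 of the 45 genes the upper end of the 95% interval lay below a 1.5-fold rise, as it did for 74.8% of all tested genes. Gdf15, named after its value was seen, was too low to be tested.

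Genes that set the level or activity of p53 were not called either. Of 26 tested regulators 0 were called by edgeR or limma-voom and 6 stood at an unadjusted p below 0.05 (20.9% of all tested genes), with a median log2 fold change of -0.07. DESeq2 called 1 lower, Hipk2, a kinase gene whose product activates p53 (-0.37), named after its value was seen. Over all genes DESeq2 called 479 of 15386 lower. Trp53bp1, which encodes a damage-response partner of p53, measured 342 CPM in DKO and 362 CPM in the control libraries (log2 fold change -0.08), and Rpl5, whose ribosomal protein binds MDM2 when ribosome assembly fails, measured 285 and 322 CPM (-0.18, edgeR adjusted p = 0.417). Cdkn2a, whose ARF product blocks MDM2 and which was named after its value was seen, was too low to be tested. Of 18 genes whose loss gives p53-dependent defects of crest or blood, with functions in ribosome assembly, splicing and chromatin, 0 were called by edgeR or limma-voom. Of all tested genes edgeR called 3.01%. The median of the 18 was -0.11, and 15 values were below 0, beside 7459 of all 14555 tested genes. In the edgeR test 1 of the 18 stood at an unadjusted p below 0.05, beside 20.9% of all tested genes. The gene at that p, Nol11, of ribosome assembly and named after its value was seen, was called lower by DESeq2 and with a replicate block (-0.38 in both). The block called 196 of 14555 genes lower. The 2 highest in CPM, the splicing factor genes Sf3b2 and Eftud2, had log2 fold changes of -0.13 and -0.10.

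Of 24 tested genes of the BCL2 family and the caspases, the executioners of apoptosis, 0 were called by edgeR, DESeq2 or limma-voom and 3 stood at an unadjusted p below 0.05, beside 20.9% of all tested genes, with a median of 0.0032. Mcl1, a survival gene and the highest of the list in CPM, had a log2 fold change of 0.08. Among 21 tested relatives of the 10 genes 0 were called by edgeR, DESeq2 or limma-voom and 5 stood at an unadjusted p below 0.05, with Cdkn1c at -0.19 and the cyclin gene Ccni at -0.27.

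Cell cycle genes that p53 lowers through p21 and the DREAM repressor complex were mostly just below control. Of 35 tested genes 0 were called by edgeR or limma-voom and 2, Melk and Top2a, were called lower by DESeq2, beside 479 of all 15386 genes. In the edgeR fit 29 log2 fold changes were below 0, beside 7459 of all 14555 tested genes, and the median was -0.10. At an unadjusted p below 0.05 stood 10 of the 35, or 28.6%, beside 20.9% of all tested genes. Top2a, a topoisomerase gene of dividing cells, measured 761 CPM in DKO and 922 CPM in the control libraries (log2 fold change -0.28, edgeR adjusted p = 0.146), and the proliferation marker Mki67 measured 743 and 841 CPM (-0.18, edgeR adjusted p = 0.221). The summed level of the list was 7337, 6801 and 7429 CPM in DKO and 7203, 8157 and 8192 CPM in the control libraries, groups that overlap. Cdkn1a, which acts upstream of these genes, was below control in the same libraries without being called (edgeR adjusted p = 0.190). The cause of the lower values of the list was not tested.

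The integrated stress response, which shares Sesn2 with the p53 pathway, had 1 called gene among 25 tested, beside 3.01% of all tested genes. It was Slc7a11, the cystine transporter gene, which measured 22.2 CPM in DKO and 11.46 CPM in the control libraries (log2 fold change 0.95, SE 0.12; adjusted p = 0.00663, edgeR). The median of the list was -0.05, and 4 of its genes stood at an unadjusted p below 0.05, beside 20.9% of all tested genes.

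**Figure D4:**
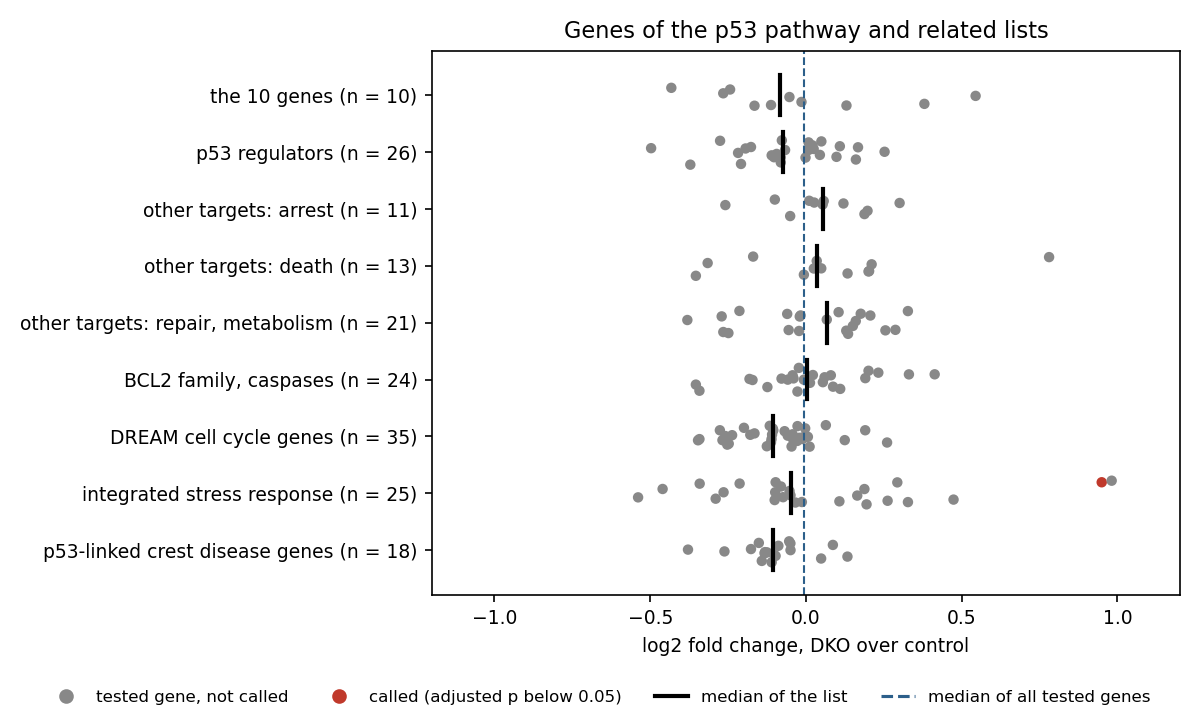
Log2 fold change, DKO over control (horizontal axis), of each tested gene in 9 groups (rows, with the number tested), with the median of each list as a black bar and that of all tested genes as a dashed line. The medians lie between -0.11 and 0.07, and the 1 called gene, in red, is Slc7a11.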

How the data were processed

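Polyadenylated RNA of 3 DKO and 3 control samples was sequenced from stranded libraries. The file deposited by the authors gives raw counts, as whole numbers, for each gene symbol. The submitters' processing notes name mm10 as the genome and list Trim Galore, STAR 2.7.10a and Picard. How reads were assigned to genes, with which annotation and with or without strand, is not given in the sources used here. Columns named WT were taken as the control samples of the same replicate number.

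Counts were tested with edgeR 4.0.16 in R 4.3.3 (filterByExpr with minimum count 10 and minimum total 15, TMM, robust quasi-likelihood test, 2-sided, group as the only term), with Benjamini-Hochberg adjustment over 14555 genes. The standard error is the log2 fold change divided by the root of F, and the 95% interval uses the t quantile at the total degrees of freedom of the fit. P-values set the group difference against the spread between these samples, estimated with information shared over all tested genes. Before use, the script was tested on simulated counts, from which no value here comes. Alternatives were a replicate block, RLE factors, library size only, 2 other filters, DESeq2 1.42.0, limma-voom 3.58.1 and leaving out each library. Named from a list were up to 4 called genes, or the 2 highest in mean CPM where none was called; 1 gene this rule selects is not reported here. The 10 genes and the lists were chosen with earlier results of these data known. Positions and promoter windows are from RefSeq, GRCm38.p6 (mm10), where all 21006 symbols matched, and exon lengths and overlaps from GENCODE M21.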

Additional observations from a re-analysis of the deposited data

How the results depend on the processing

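Of the 10 genes, 1 (Phlda3) was called higher with the DESeq2 Wald test and 0 to 1 when 1 library was left out, the 1 being Phlda3 without DKO replicate 3; in every fit run 0 were called lower. The signs of Mdm2 and Bbc3 turned with library size only (0.065 and 0.029), for Mdm2 also with at least 1 CPM in 3 libraries (0.0016), and when 1 library was left out (between -0.040 and 0.030 for Mdm2, and between -0.18 and 0.062 for Bbc3). The other 8 kept their sign in every fit that tested them. Eda2r has no value with at least 1 CPM in 3 libraries, since it did not pass that filter. Library size only moved the log2 fold change of all genes by a median of 0.08.

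Over all tested genes, calls numbered 319 higher and 119 lower. DESeq2 gave 642 and 479, the replicate block 423 and 196, and the fits without 1 library 110 to 597 and 21 to 509, with the largest counts without DKO replicate 3. Library size only gave 416 and 80. DESeq2 called 1 regulator, 1 other arrest target, 1 repair and metabolism target, 2 DREAM genes and 1 gene linked to p53-dependent crest defects, all lower. With the replicate block, 1 gene of that last list, Nol11, was called (edgeR adjusted p = 0.0323). With 1 library left out the counts were 0 to 2 regulators, 0 to 2 DREAM genes and 0 to 1 gene of that last list, and those above 0 came without DKO replicate 3 (Atm and Hipk2, Ccne2 and Melk, and Nol11). Library size only gave 2 integrated stress response genes, Slc7a11 and Ppp1r15a. The causes of these differences were not tested.

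The labels do not say whether replicate numbers pair the samples. Deviations from the group means correlated at 0.05, -0.03 and 0.36 between same-numbered libraries, and DKO replicate 2 correlated best with control replicate 1 (0.45). With 3 libraries per group the deviations depend on one another, so these values cannot decide whether samples were paired. The block changed no call among the 10 genes, but with it Phlda3 came close to the threshold (log2 fold change 0.53, edgeR adjusted p = 0.0570). Depth limits Eda2r most, with 16 to 43 counts per library.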
